A study of Mus musculus with 8 samples.

Results

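Microtubules are built from heterodimers of 1 alpha and 1 beta tubulin, and mammals encode each in several isotypes that differ mainly near their carboxyl ends. In peripheral nerve they carry transport along axons and shape Schwann cells, the glia that wrap those axons. The mRNA of an isotype detected in whole nerve comes largely from Schwann cells and other resident cells, since the cell bodies of motor and sensory neurons lie outside the nerve, although axons also hold some mRNA. The alpha and beta tubulin isotypes measured here were Tuba1a, Tuba1b, Tuba1c, Tuba4a, Tuba8, Tubb2a, Tubb2b, Tubb3, Tubb5 and Tubb6. They were taken as every probe that carried one of these 10 gene names, which gave 14 of the 55681 probes in the array design, 8 for the 5 alpha and 6 for the 5 beta isotypes. All 14 were well above background in both dyes on all 8 arrays, so all 14 were among the 19838 probes kept for testing, and none was marked as an outlier spot.

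SOD1G93A mice (4 arrays) were compared with wild-type, non-transgenic mice (4 arrays), all male and 60 days old, on RNA of their sciatic nerve. SOD1G93A mice express a human SOD1 transgene with the mutation in their name and serve to model amyotrophic lateral sclerosis, and the study calls them presymptomatic. Each array held nerve RNA labelled with Cy3 and the same pool labelled with Cy5, made of RNA from neonatal organs (heart, kidney and liver) of both genotypes. The study asked which cytoskeleton genes are deregulated in the model. The labels describe 4 biological replicates of a genotype and do not say whether animals were pooled. Dyes were not swapped, and the slide position of an array changed with genotype, so position and genotype cannot be told apart. Values are log2 ratios of nerve to pool (Cy3 over Cy5), a difference is SOD1G93A minus wild type, and a probe was called at an adjusted p under 0.05 in limma's moderated test over all kept probes.

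A pair of arrays stood apart from the rest. SOD1G93A replicate 1 had the lowest median Cy3 signal of the kept probes, 374 units, and wild-type replicate 1 the highest, 713.5 units, with 526.8 to 597.8 units elsewhere. Along the first principal component, which held 36.3% of the variance, they lay at 37.7 and -35.7, with the others between -14.7 and 9.19. Skeletal muscle markers were also high in wild-type replicates 1 and 2, as given below. Of the spots outside the controls, 35.5% to 41.7% were well above background in Cy3, and no spot was saturated. The mouse Sod1 probe (A_55_P2177539) averaged -0.04 ± 0.09 in SOD1G93A nerve and 0.13 ± 0.20 in wild-type nerve (SD, n = 4 each; limma adjusted p = 0.612). It is a mouse sequence and does not check the human transgene.

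Each probe is 60 bases long and was placed by the files on mouse build mm9, and the tables used here give no exon or UTR at these positions. The placements of Tubb2a A_51_P490023 and Tuba1a A_51_P169745 span only 30 and 16 bases, so they cover part of the probe. Both Tubb2b probes, A_51_P514256 at chr13:34219061-34219120 and A_55_P2034864 at chr13:34219092-34219151 on the minus strand, overlap by 29 bases. They are therefore 2 partly shared readings of the transcript and not independent. Their shared run is bases 32 to 60 of A_55_P2034864 and 1 to 29 of A_51_P514256. It is shown because the probes that hold it gave the largest genotype differences, and the capitals mark all of it.
Tubb2b shared run: GGCTAAAATCACATAAACCTTTGTGTCCT
The single Tuba8 probe, A_66_P119518 at chr6:121176046-121176105 on the plus strand, holds a frame open from base 2 that ends in the TAA marked in capitals at base 50.
Tuba8 A_66_P119518: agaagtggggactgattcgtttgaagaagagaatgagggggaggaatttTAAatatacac
Tuba1b was read by A_55_P2116496 and A_55_P2154132, which gave different genotype values. A_55_P2154132 lies at chr15:98761923-98761982 on the minus strand, and its first 30 bases are shown because it was the brighter of the pair.
Tuba1b A_55_P2154132: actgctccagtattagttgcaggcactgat

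The Tuba1c probes overlap by 49 bases, of which 48 match. The difference is A43G, counted from the 5′ end of A_55_P2064547 with its base first, and it is in capitals in the stretches below.
Tuba1c A_55_P2064547: ctgtcaataaaggtgtttccAttgtaa
Tuba1c A_55_P2108837: ctgtcaataaaggtgtttccGttgtaa
A_55_P2108837 was placed at chr15:98868477-98868536, on the chromosome of Tuba1c. A_55_P2064547 was placed at chr12:4790369-4790428 and ends in a run of 6 A. The same holds for Tuba1a, with A_51_P169745 on chromosome 15 and A_55_P2115057 at chr12:52234336-52234395, which also ends in 6 A. The end of the first Tuba1a probe and the start of the second are similar but not identical, with a longest shared run of 13 bases.
Tuba1a A_51_P169745: agaccccaagctgcccattt
Tuba1a A_55_P2115057: agacccaagctgcccacttc
The accessions of both chromosome 12 probes matched no RefSeq transcript, and those of the other 12 matched the named gene on its own chromosome (GRCm38.p6). Probes of different isotypes shared runs of at most 10 letters. How far a probe also binds RNA of a related gene or copy was not tested.

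In nerve, 12 of the 14 probes gave a mean ratio above the neonatal organ pool (85.7%), and their median was 1.16, against 55.6% and a median of 0.09 for all kept probes. These ratios describe each transcript against the pool, with dye and tissue confounded, and do not rank the isotypes by abundance. Some of them moved with the processing, as given at the end. Tuba1a, an alpha isotype prominent in the developing nervous system and in growing axons, had the highest ratios at 2.38 and 2.47 on its 2 probes, 5.21-fold and 5.54-fold over the pool. Tubb2a, a beta isotype abundant in neurons, followed at 1.84, or 3.59-fold. Those ratios lay at percentiles 97.4, 97.6 and 95.4 of the kept probes.

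Tuba1b, a widely expressed alpha isotype, had 1.58 and 1.31 on its probes, which is 2.99-fold and 2.47-fold over the pool. Tubb5, the beta isotype most cells use, had 1.42 (2.67-fold). Tuba8, best known from muscle and testis, had 1.25 (2.38-fold). Tubb2b, a beta isotype of the developing nervous system, had 0.96 and 1.08 on its probes (1.95-fold and 2.11-fold). Tuba4a, whose human counterpart carries variants linked to familial amyotrophic lateral sclerosis, had 0.81 (1.75-fold), and Tubb3, the beta isotype widely used as a neuron marker, had 0.69 (1.61-fold). The SD over the 8 arrays ran from 0.09 to 0.44 across the 14 probes, so neighbours in this order lay mostly within 1 SD of each other.

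Tuba1c and Tubb6 were the exceptions. Tuba1c, an alpha isotype of many dividing and non-neuronal cells, lay below the pool on all 8 arrays on both probes, with means of -1.78 and -1.75, or 0.291-fold and 0.297-fold. Its probes stood at percentiles 2.90 and 3.00 of the kept probes. Tubb6 (chr18:67562310-67562369), a broadly expressed and divergent beta isotype, lay level with the pool at 0.003, with single arrays between -0.44 and 0.35. By Cy3 brightness on an array, A_55_P2154132 of Tuba1b was among the brightest probes, at percentile 99.9 or above on all 8 arrays, with 65081 to 115958 units. The Tubb3 probe was the dimmest of the 14, with 174 to 430 units and percentiles of 14.9 to 35.4. Its Cy5 intensity was 56 to 68 units, near the offset of 50 added in processing. The Tubb3 ratio thus rests on a weak pool signal and is less certain than the others.

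**Figure D1:**
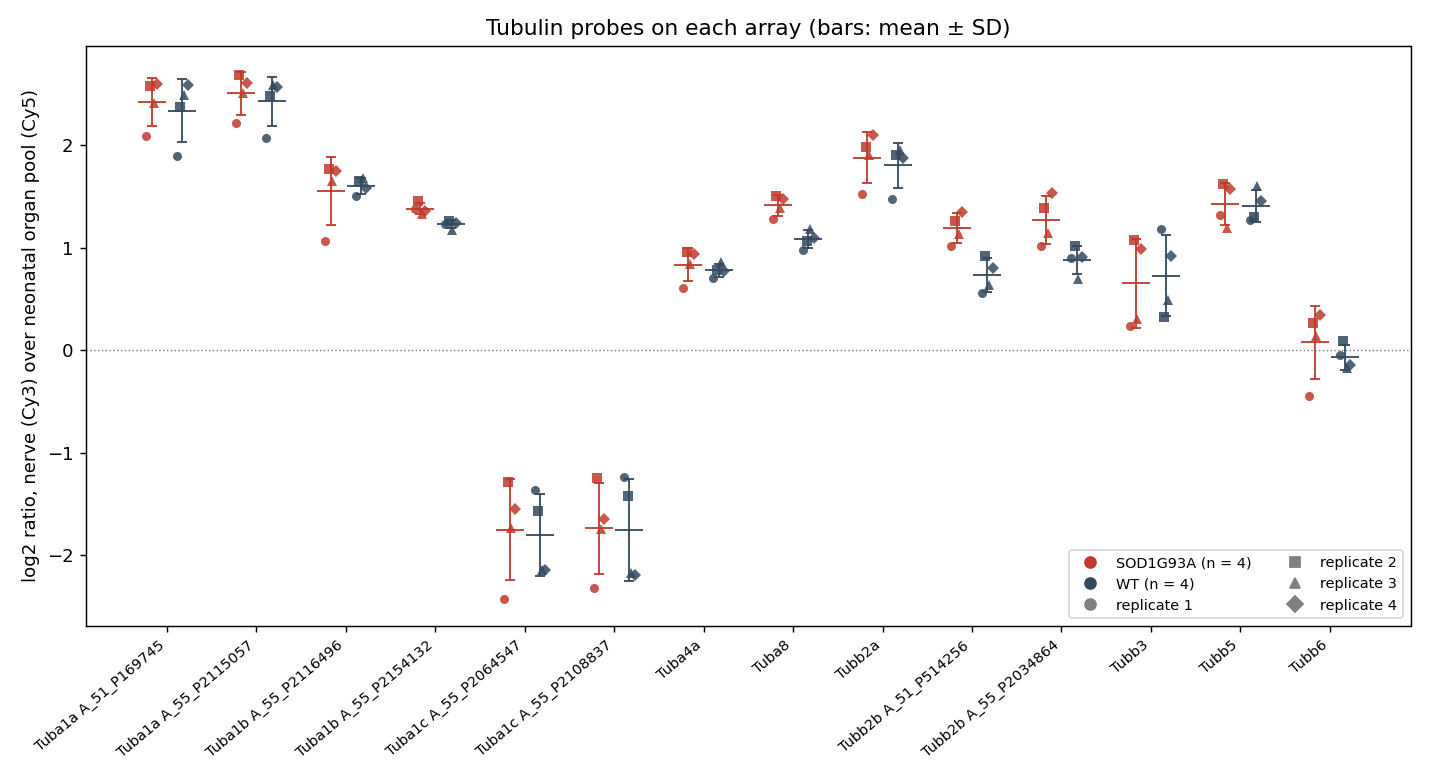
Log2 ratio of nerve (Cy3) to neonatal organ pool (Cy5) of each tubulin probe on each array, with SOD1G93A (red) left of wild type (blue), marker shape for the replicate number, and bars for mean ± SD (n = 4 each). Tuba1c lies below the dotted line of equal signal on all 8 arrays, and the groups of Tuba8, of 1 Tubb2b probe and of 1 Tuba1b probe do not overlap.

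None of the 14 tubulin probes passed limma's test between genotypes, where 0.171% of all kept probes did (34 of 19838), 0.0857% with higher and 0.0857% with lower values in SOD1G93A nerve. The differences nearest to the threshold were those of Tubb2b and Tuba8, and all 3 of their probes had higher means in SOD1G93A nerve. An unadjusted limma p under 0.05 was found for these 3 probes, against 10.9% of all kept probes (4.59% higher and 6.32% lower). For 3 probes the groups did not overlap, all with SOD1G93A above wild type, 1 each of Tubb2b, Tuba8 and Tuba1b. That is 21.4% of the tubulin probes and 7.52% of all kept probes (3.44% higher and 4.08% lower). The difference was above 0 for 12 of the 14 probes, against 45.4% of all kept probes. The median difference was 0.08, against -0.02 over all kept probes, whose quartiles were -0.13 and 0.09. Some of these probes read the same transcript, so the counts do not describe 14 separate measurements. The members were chosen with earlier results of these data known.

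Tubb2b had the largest difference among the isotypes. On A_51_P514256 its ratio was 1.01, 1.27, 1.13 and 1.35 in SOD1G93A replicates 1 to 4, against 0.56, 0.93, 0.63 and 0.81 in the wild-type replicates. The groups did not overlap. The means were 1.19 ± 0.15 in SOD1G93A nerve and 0.73 ± 0.16 in wild-type nerve (SD, n = 4 each). This is a difference of 0.46 ± 0.11 (SE) or 1.37-fold, with a 95% interval of 0.21 to 0.71 and a limma adjusted p of 0.177 (unadjusted p = 0.00221). The overlapping probe A_55_P2034864 had 1.01, 1.39, 1.15 and 1.54 in SOD1G93A nerve, against 0.90, 1.02, 0.70 and 0.91 in wild-type nerve. Here the lowest SOD1G93A array lay just under the highest wild-type array. Its difference was 0.39 ± 0.13 (SE), or 1.31-fold, with an interval of 0.10 to 0.67 and a limma adjusted p of 0.314.

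Before the pool was taken into account, the same order was only partly visible in the raw signal of A_51_P514256. The raw Cy3 intensity was 735, 1421, 1106 and 1468 units in SOD1G93A replicates 1 to 4, against 1279, 994, 961 and 1141 units in the wild-type replicates. The raw groups overlapped. The SOD1G93A array with the lowest median signal was the lowest here, and the wild-type array with the highest median signal was the highest of its group. On the normalized Cy3 channel alone the difference of this probe was 0.28, with an adjusted p of 0.394.

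Tuba8 had a ratio of 1.28, 1.51, 1.39 and 1.48 in SOD1G93A nerve, against 0.98, 1.07, 1.19 and 1.10 in wild-type nerve. All 4 SOD1G93A arrays lay above all 4 wild-type arrays. The means were 1.42 ± 0.10 in SOD1G93A nerve and 1.08 ± 0.09 in wild-type nerve (SD, n = 4 each). The difference was 0.33 ± 0.08 (SE), or 1.26-fold, with an interval of 0.14 to 0.52, a limma adjusted p of 0.201 and an unadjusted p of 0.00324. A single probe reads this gene.

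The 2 probes of Tuba1b gave different values. On the bright A_55_P2154132 the ratio was 1.38, 1.46, 1.33 and 1.36 in SOD1G93A nerve, against 1.23, 1.27, 1.18 and 1.24 in wild-type nerve. These groups did not overlap, and the SDs of 0.06 in SOD1G93A nerve and 0.04 in wild-type nerve (n = 4 each) were the smallest of any tubulin probe. The difference was 0.15 ± 0.07 (SE; limma adjusted p = 0.476), with an interval of -0.01 to 0.31. On A_55_P2116496 the ratio was 1.07, 1.77, 1.65 and 1.75 in SOD1G93A nerve, against 1.50, 1.66, 1.68 and 1.59 in wild-type nerve. The groups overlapped, with SOD1G93A replicate 1 far below its group, and the difference was -0.05 ± 0.15 (SE; limma adjusted p = 0.928). Without that array it was 0.12.

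**Figure D2:**
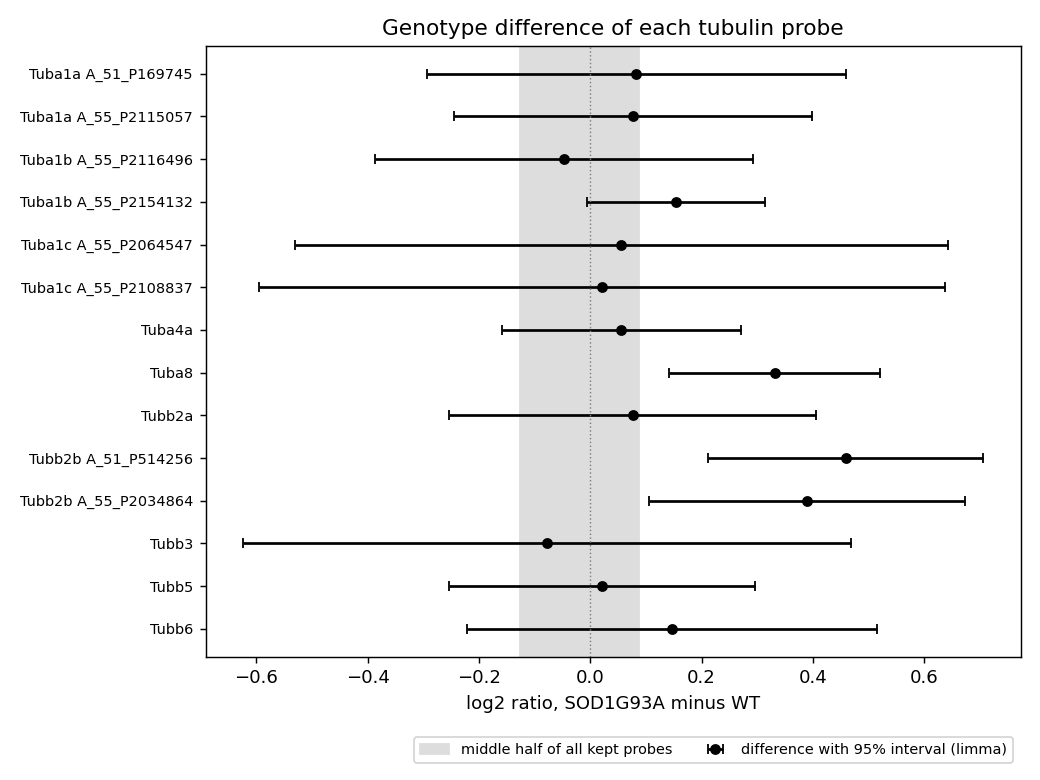
Difference of the log2 ratio, SOD1G93A minus wild type, of each tubulin probe with its 95% interval from limma. The grey band spans the quartiles of all kept probes, -0.13 to 0.09, and the intervals of Tuba8 and both Tubb2b probes lie above 0 before adjustment for the number of probes.

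The means of the other isotypes differed between genotypes by less than 1 SE of the difference in limma. For Tuba1a the difference was 0.08 ± 0.17 and 0.08 ± 0.14 (SE) on its probes, with intervals of -0.29 to 0.46 and -0.24 to 0.40. Its ratio on A_55_P2115057 was 2.22, 2.69, 2.52 and 2.61 in SOD1G93A nerve, against 2.07, 2.48, 2.59 and 2.57 in wild-type nerve, so the lowest array of each group was replicate 1. Tuba4a (A_52_P676271, chr1:75212307-75212366) averaged 0.84 ± 0.16 in SOD1G93A nerve and 0.78 ± 0.06 in wild-type nerve (SD, n = 4 each). Its difference of 0.06 had an interval of -0.16 to 0.27, the narrowest among the isotypes with overlapping groups.

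Among the beta isotypes, Tubb2a (A_51_P490023, chr13:34166116-34166145) averaged 1.88 ± 0.25 in SOD1G93A nerve and 1.80 ± 0.22 in wild-type nerve, with an interval of the difference of -0.25 to 0.41. Tubb5 (A_52_P163795, chr17:35971872-35971931) averaged 1.43 ± 0.20 in SOD1G93A nerve and 1.41 ± 0.16 in wild-type nerve, with an interval of -0.25 to 0.30. Tubb6 averaged 0.08 ± 0.36 in SOD1G93A nerve and -0.07 ± 0.12 in wild-type nerve, with an interval of -0.22 to 0.52 (SD, n = 4 each throughout). SOD1G93A replicate 1 alone gave -0.44 for Tubb6, while SOD1G93A replicates 2 to 4 gave 0.14 to 0.35, and without it the difference was 0.32. With Tubb3, both Tuba1c probes and A_55_P2116496 of Tuba1b, these made 10 probes with a limma adjusted p between 0.769 and 0.984.

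Tubb3 (A_55_P2041828, chr8:125945850-125945909) and Tuba1c varied most within groups. Tubb3 had 0.24, 1.07, 0.31 and 0.99 in SOD1G93A nerve, against 1.18, 0.32, 0.49 and 0.92 in wild-type nerve. Both groups held 2 higher and 2 lower arrays, and the difference of -0.08 had an interval of -0.62 to 0.47. Tuba1c on A_55_P2108837 had -2.32, -1.25, -1.74 and -1.64 in SOD1G93A nerve, against -1.24, -1.43, -2.17 and -2.20 in wild-type nerve. Its wild-type arrays fell into a pair of higher and a pair of lower values. The difference was 0.02, with an interval of -0.60 to 0.64, and on A_55_P2064547 it was 0.06, with an interval of -0.53 to 0.64. Intervals this wide hold differences as large as that of Tubb2b in either direction.

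The 2 probes of a gene followed each other over the 8 arrays for Tuba1a (Pearson r = 0.98). So did those of Tuba1c (r = 0.98) and Tubb2b (r = 0.92), but in both genes the probes overlap in sequence. For Tuba1b r was -0.06, and the gap between the differences of its probes was 0.20, against 0.006 for Tuba1a, 0.03 for Tuba1c and 0.07 for Tubb2b. These correlations are descriptions over arrays that share a slide and a pool. SOD1G93A replicate 1 was the lowest of its group for 12 of the 14 probes, and SOD1G93A replicate 2 was the highest for 9. Wild-type replicate 1 was the lowest of its group for 8 probes and the highest for 3.

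Without SOD1G93A replicate 1 the differences of Tubb2b were 0.52 (adjusted p = 0.0679) on A_51_P514256 and 0.48 on A_55_P2034864, that of Tuba8 was 0.38, and 197 of all kept probes were called, but none of the tubulin probes. With array weights estimated by limma, which gave that array 0.177 and the others 0.542 to 1.93, Tubb2b on A_51_P514256 had a difference of 0.49 (adjusted p = 0.0279) and Tuba8 one of 0.34 (adjusted p = 0.0368). Under that weighting 456 of all kept probes passed as well. In no other alternative did a tubulin probe pass.

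**Figure D3:**
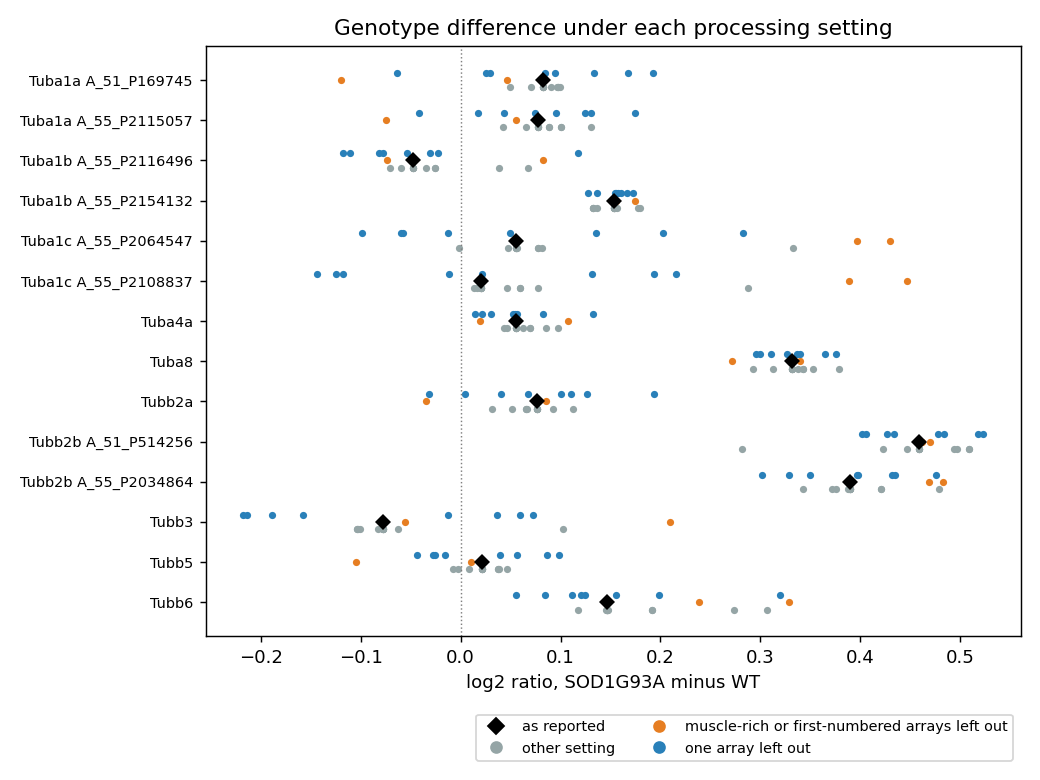
Difference of the log2 ratio, SOD1G93A minus wild type, of each tubulin probe as reported (black diamond) and under every alternative. Tuba8 (0.27 to 0.38) and both Tubb2b probes (0.28 to 0.52 and 0.30 to 0.48) stay right of 0 throughout, and Tubb3, Tubb5, Tubb2a, both probes of Tuba1c and of Tuba1a and 1 Tuba1b probe fall on both sides.

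Markers of other cell types differed between arrays. In a whole tissue, fewer cells of a type and less RNA per cell cannot be told apart. Skeletal muscle markers (11 of 14 measured, among them Acta1 and Ckm; Mylpf, Myh1 and Myh2 were not kept) had a summed normalized Cy3 signal of 4354 to 5477 units in SOD1G93A nerve. In wild-type nerve it was 57086, 22033, 5519 and 6040 units in replicates 1 to 4. None of the 11 had a difference above 0, and none was called. Among the wild-type arrays, the 2 rich in muscle markers were those on which Tuba1c was higher. SOD1G93A replicate 2 had a Tuba1c ratio as high (-1.25 on A_55_P2108837) with a mean muscle marker ratio of -1.43. Smooth muscle, adipocyte and endothelial markers were also highest on wild-type replicates 1 and 2. With both left out, the difference of Tuba1c was 0.45 on A_55_P2108837 and 0.40 on A_55_P2064547, without passing the test. With both left out, Tuba8 had a difference of 0.27 (limma adjusted p = 0.662), and the Tubb2b probes had 0.47 each (adjusted p = 0.497 and 0.598). The part of muscle in these differences was not tested.

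Axon and neuron markers (10 of 14 measured; Elavl3, Elavl4, Scn9a and Rbfox3 were not kept) summed to 4853 to 6605 units in SOD1G93A nerve and 4849 to 5498 units in wild-type nerve. Their mean ratio was 1.09, 0.88, 0.70 and 0.82 in SOD1G93A replicates 1 to 4, against 0.73, 1.00, 0.88 and 1.04 in the wild-type replicates. Tubb3 did not follow this order, being lowest on the SOD1G93A array where these markers were highest. Its pool signal was weak, as given above. Myelinating Schwann cell markers (12 of 12) summed to 317085 to 441419 units in SOD1G93A nerve and 265999 to 398040 units in wild-type nerve, with none called. Of their differences 11 were above 0, with a list median of 0.09. Egr2 alone ran the other way, at -0.46 (limma adjusted p = 0.306) without overlap. The mean ratio of the 12 markers over the pool was 4.52 to 5.11 in SOD1G93A nerve and 4.38 to 4.79 in wild-type nerve. The defining markers of peripheral nerve were thus high on all 8 arrays.

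As in the myelinating Schwann cell list, most differences in some other lists had the direction of those of Tubb2b and Tuba8. Markers of repair or non-myelinating Schwann cells (8 of 11 measured; Shh, Olig1 and Artn were not kept) summed to 11674 to 15230 units in SOD1G93A nerve and 7181 to 9341 units in wild-type nerve, with 7 of 8 differences above 0 and 2 called, Jun and Gdnf. The Gdnf probe was well above background on 4 SOD1G93A arrays and 0 wild-type arrays, so it was kept through SOD1G93A nerve alone and its call adds nothing on the list's direction. Jun (1.11) and Ngfr (0.70) were higher without overlap. Ncam1, L1cam, Scn7a, Cadm1 and Cdh2 had differences of -0.02 to 0.14 with overlapping groups, and the list median was 0.12. Macrophage markers (9 of 10 measured, Cd163 not kept) summed to 7516 to 17379 units in SOD1G93A nerve and 8092 to 10312 units in wild-type nerve. All 9 differences were above 0, 4 of them without overlap, and 1 was called, Trem2. The 7516 units were those of SOD1G93A replicate 1, below all wild-type arrays. Its mean ratio was 0.69, against 0.53 to 0.84 in wild-type nerve and 1.52 to 1.83 on the other SOD1G93A arrays. Markers of dividing cells (5 of 8 measured, with Top2a, Cdk1 and Aurkb not kept) summed to 1100 to 1740 units in SOD1G93A nerve and 772.1 to 1009 units in wild-type nerve. All 5 were higher without overlap, against 3.44% of all kept probes, and none was called. Of these, Ccnb1 was well above background on 4 SOD1G93A and 2 wild-type arrays. Endothelial and adipocyte markers ran the other way, at 7768 to 12662 and 34231 to 120663 units in SOD1G93A nerve, against 12157 to 16455 and 77528 to 279067 units in wild-type nerve. Both ranges overlapped between genotypes. Of 9 endothelial differences 1 was above 0, and 4 genes were lower without overlap, against 4.08% of all kept probes. Of 7 adipocyte differences none was above 0, and 1 gene was lower without overlap. Smooth muscle and pericyte markers also ran the other way, at 54085 to 60891 units in SOD1G93A nerve and 62941 to 121979 units in wild-type nerve. Of their 9 differences 1 was above 0, and all groups overlapped. None of these 3 lists held a called gene. Fibroblast markers summed to 225877 to 299569 units in SOD1G93A nerve and 224321 to 289700 units in wild-type nerve, and the 2 measured platelet markers to 1380 to 4759 units in SOD1G93A nerve and 2129 to 3538 units in wild-type nerve, with none called. The part of these cells in the tubulin values was not tested.

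**Figure D4:**
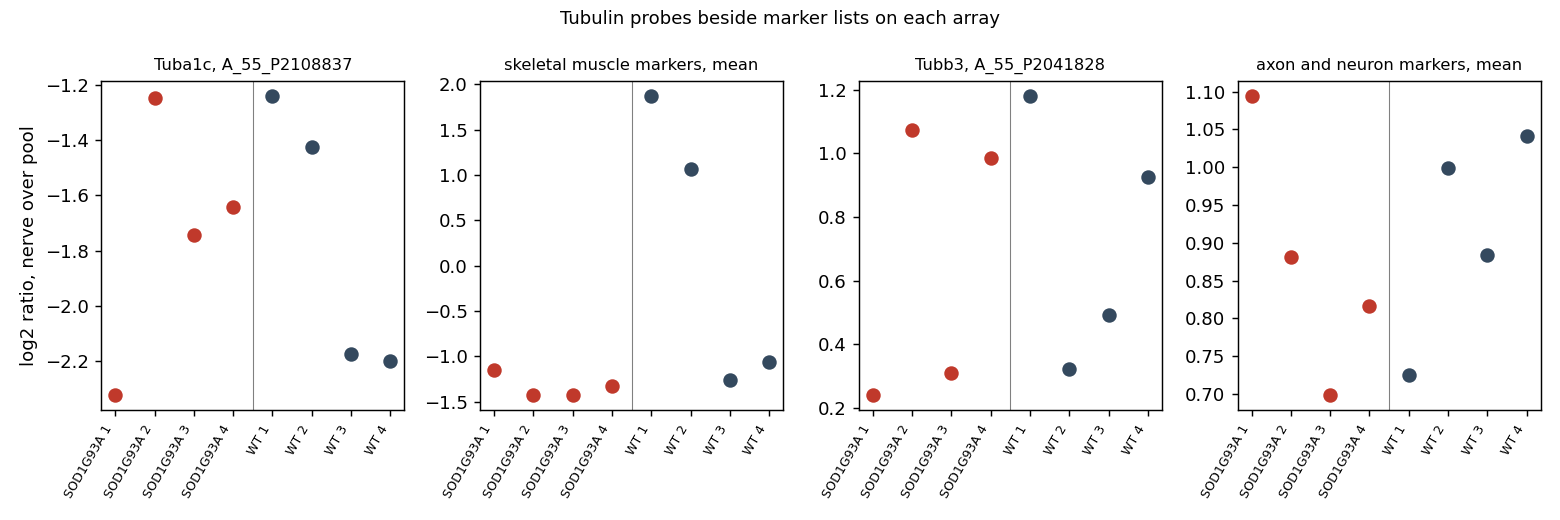
Log2 ratio of nerve to pool on each array for Tuba1c, for the mean of 11 skeletal muscle markers, for Tubb3 and for the mean of 10 axon and neuron markers, with SOD1G93A (red) left of wild type (blue). Each panel has its own vertical scale. Muscle markers are high on wild-type replicates 1 and 2 only, while Tuba1c is also high on SOD1G93A replicate 2.

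The genes whose ratios were most like that of Tubb2b (A_51_P514256) over the 8 arrays were Maff, a small basic leucine zipper factor (Pearson r = 0.97), Lsm6, an RNA-binding Sm-like protein (0.96), and Trem2, a receptor of macrophages and microglia (0.96). For Tuba8 they were Elof1, a transcription elongation factor (1.00 after rounding), Ankrd33b (0.99) and Zfp771, a zinc finger protein (0.98). These are the top values among kept probes of other named genes, over 8 arrays of 2 genotypes, and describe likeness alone. Probes named only by an identifier, such as that of a probe, a transcript, a LOC entry or a lincRNA, were left out of this ranking.

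None of the other genes of the tubulin pathway that were listed for comparison passed the test. Other tubulins were measured for 5 of 10 genes, since Tuba3a, Tuba3b, Tubal3, Tubb1 and Tube1 were not kept, with 2 differences above 0 and a median of -0.01. The smallest p-values there belonged to the gamma tubulins, which nucleate microtubules, with Tubg2 at -0.23 ± 0.09 (SE; limma adjusted p = 0.405) and Tubg1 at 0.10 ± 0.09 (adjusted p = 0.708). Of the gamma-tubulin ring complex, which anchors them, 7 of 8 genes were measured, with 2 above 0 and a median of -0.04. Tubgcp2, one of its core subunits, had 0.24 ± 0.22 in SOD1G93A nerve and 0.55 ± 0.03 in wild-type nerve (SD, n = 4 each) without overlap, and a difference of -0.30 ± 0.11 (SE; limma adjusted p = 0.365). Tubgcp6 followed at 0.10 ± 0.08 (adjusted p = 0.675).

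New tubulin is handed by prefoldin to the chaperonin CCT and then assembled into dimers by the folding cofactors. Prefoldin genes were measured for 6 of 6, with 4 above 0 and a median of 0.12, led by Pfdn2 at 0.34 ± 0.12 (SE; limma adjusted p = 0.370) and Pfdn1 at 0.18 ± 0.12 (adjusted p = 0.594). Of the 8 CCT genes, all measured, 1 was above 0 and the median was -0.09, with Cct2 at -0.19 ± 0.18 (SE; limma adjusted p = 0.726) and Cct6a at -0.18 ± 0.19 (adjusted p = 0.744). Of the 7 folding cofactors, all measured, 4 were above 0 and the median was 0.003, with Tbcc at -0.20 ± 0.10 (SE; limma adjusted p = 0.523) and Tbcd at -0.16 ± 0.09 (adjusted p = 0.536).

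Among the enzymes that modify tubulin, 14 of 25 were measured, with 9 above 0 and a median of 0.06. Ttl, the ligase that restores the terminal tyrosine of alpha tubulin, had the smallest p of these enzymes. Its ratio was 1.60, 1.34, 1.36 and 1.28 in SOD1G93A nerve, against 0.68, 1.02, 0.90 and 0.97 in wild-type nerve, without overlap. The difference was 0.50 ± 0.11 (SE; limma adjusted p = 0.127). Agbl3, a carboxypeptidase that trims tubulin tails, had -0.31 ± 0.12 (SE; limma adjusted p = 0.383). Of 23 microtubule-associated proteins 19 were measured, with 12 above 0 and a median of 0.02. Camsap1, which binds microtubule minus ends, had 0.34 ± 0.09 (SE; limma adjusted p = 0.221) on its brightest probe, and its other kept probes gave 0.14 and -0.004. Camsap3, of the same family, ran the other way at -0.51 ± 0.16 (SE; limma adjusted p = 0.285), without overlap. It was added after its values were seen. Map1s, a binding protein of the MAP1 family, had -0.45 ± 0.12 (SE; limma adjusted p = 0.223), with SOD1G93A arrays all below the wild-type arrays. Dclk1, a doublecortin-like kinase that binds microtubules and was singled out after its values were seen, had 0.29 ± 0.09 (SE; limma adjusted p = 0.308) on its brighter probe and 0.46 ± 0.09 (adjusted p = 0.116) on the other.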

How the data were processed

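Sciatic nerve RNA of 8 mouse samples (4 SOD1G93A, 4 wild type) was measured on 2-colour Agilent arrays, all on 1 slide with 1 scan date. The authors' deposited scanner output gives linear spot intensity, written per the file headers by Agilent Feature Extraction 11.5.1.1, although version 11.0.1.1 stands in the submitters' processing notes beside limma. Log10 ratios (Cy5 over Cy3) make up their deposited value matrix, equal to the scanner log ratios (largest difference 0, each column's median 0), and 31.8% to 35.5% of a column was exactly 0. Its sign was turned here for an alternative.

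Mean intensities were corrected by normexp (offset 50) on the median local background and by loess within arrays, with no scaling between arrays. Outlier spots were dropped and spots of a probe averaged. Probes were kept that exceeded background well (scanner flag, Cy3) on 4 or more arrays. limma 3.58.1 (lmFit, eBayes; R 4.3.3, with version 1.17.8 of data.table) compared genotypes per probe, 2-sided, with Benjamini-Hochberg adjustment over 19838 probes. Other genes are given by their brightest kept probe. Summed marker signals use Cy3 after quantile normalization of the channels. All probes of the 10 gene names are reported. Of each other list, the called genes or the 2 with the smallest p are named, and Dclk1 and Camsap3 besides. The 3 most similar probes of other named genes to each of the 2 tubulin probes with the smallest p are given too. The members and lists were chosen with earlier results of these data known. The number of arrays limits precision. In simulations of 19820 probes the test recovered 1.8% of log2 changes of 0.25, 35.2% at 0.5 and 80.6% at 1. It made 5.4 false calls per run. The simulated noise was drawn separately for each probe, so no array stood apart in it as in the data. Array alternatives covered background, normalization, filter, weights and left-out arrays.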

Additional observations from a re-analysis of the deposited data

Results flagged for a closer look

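Among the 28 groups of 4 values checked (14 probes in 2 genotypes), 2 held an array far from the others, and chance gives about 1 in 20. For Tuba1b A_55_P2116496, SOD1G93A replicate 1 had a ratio of 1.0654, with the other SOD1G93A arrays between 1.65 and 1.77, so its gap was 0.830 of the range of the group. For Tubb2a A_51_P490023, wild-type replicate 1 had a ratio of 1.4807, with the other wild-type arrays between 1.88 and 1.95 and a gap of 0.837 of the range. These were the 2 arrays that stood apart over all kept probes.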

How the results depend on the processing

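No tubulin probe was called as reported or in 21 of 22 alternatives, while 2 were with array weights, Tuba8 (0.34) and Tubb2b A_51_P514256 (0.49). The 34 calls over all probes became 14 with Agilent's processed signals and with the series table, 2 with median centring, 456 with array weights, 260 on the 6 arrays numbered 2 to 4, 9 without wild-type replicates 1 and 2, and 6 to 197 without 1 array, the 197 without SOD1G93A replicate 1. Replicate numbers did not pair the samples (same-number correlations of deviations -0.17, 0.03, -0.12 and 0.09), and the replicate block gave 2 calls over all probes and 0 among tubulins. The 3 tubulin probes without overlap became 0 with median centring, 5 on the 6 arrays, and 3 to 5 without 1 array, the 5 again without SOD1G93A replicate 1. Differences above 0 numbered 8 to 14 across all alternatives, and 9 to 14 without 1 array. The median nerve over pool ratio of 1.16 was 1.38 with Agilent's signals and the series table and 0.98 with median centring. Single-probe ratios over the pool stayed within 1 SD over the 8 arrays for 45 values and moved further for 11. Of the genotype differences of single probes, 271 kept side and direction, 31 turned sign and 2 passed the threshold. The sign turned for Tubb5 with scaling between arrays (-0.0028), with array weights (-0.0078) and without wild-type replicates 1 and 2 (-0.10), the last also turning Tuba1a (-0.12 and -0.075) and Tubb2a (-0.035). On Cy3 alone it turned for Tuba1b A_55_P2116496 (0.039) and Tuba1c A_55_P2064547 (-0.0017). Array weights turned Tuba1b A_55_P2116496 (0.067) and Tubb3 (0.10), as did the 6 arrays (0.083 and 0.21). Without 1 array the ranges were -0.064 to 0.19 and -0.042 to 0.17 for Tuba1a, -0.12 to 0.12 for Tuba1b A_55_P2116496, -0.098 to 0.28 and -0.14 to 0.22 for Tuba1c, -0.032 to 0.19 for Tubb2a, -0.22 to 0.072 for Tubb3 and -0.044 to 0.099 for Tubb5. The cause was not tested. Tuba8, both Tubb2b probes, Tuba1b A_55_P2154132, Tuba4a and Tubb6 stayed above 0 in every alternative.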
